A study of Mus musculus with 6 samples.

Results

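Iron is stored, heme is broken down and oxidants are buffered by a small group of genes, and 10 of them are described here across the cell classes and disease states of the C3(1)-Tag mouse mammary gland. They are Fth1, Ftl1, Slc40a1, Tfrc, Hmox1, Slc48a1, Nqo1, Gclm, Srxn1 and Txnrd1, 10 of the 31055 genes in the count tables. The genes were picked by name with their Tumor values known, Fth1 (chr19:9980598-9985098 of GRCm38, plus strand) and Slc48a1 (chr15:97778520-97792692, plus strand) for low Tumor levels in several cell types. Every Tumor value of the 10 genes is therefore a description without a test, and only the comparison of DCIS with Prepuberty was tested for them. The samples were 6 single-cell RNA-seq libraries, 2 for each of 3 states of the female C3TAG mouse, an FVB/NJ line in which the C3(1) promoter drives the SV40 large T antigen in mammary epithelium, so that all 3 states carried the transgene. Prepuberty was the whole mammary gland at 5 weeks, DCIS the whole gland with ductal carcinoma in situ lesions at 14 weeks, and Tumor a palpable tumor after 18 weeks. The labels do not say whether the 2 libraries of a state came from different animals, so a p-value measures the spread between libraries, which may be technical. The sample labels give the same overnight enzyme digestion for glands and tumors, while the study's methods give another dissociation for the tumors. This was not resolved, and such a difference could not be told apart from the Tumor state.

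Ferritin is the cell's iron store, a shell built of heavy chains (Fth1), which oxidize iron, and light chains (Ftl1). Iron enters most cells through the transferrin receptor (Tfrc) and leaves through ferroportin (Slc40a1), the only known iron exporter of mammals. Heme from red cells taken up by macrophages is carried out of the phagolysosome by Slc48a1, also called HRG1, and heme oxygenase 1 (Hmox1) splits it into iron, biliverdin and carbon monoxide. Nqo1 (a quinone reductase), Gclm (the modifier subunit of the enzyme that starts glutathione synthesis), Srxn1 (sulfiredoxin, which repairs oxidized peroxiredoxins) and Txnrd1 (thioredoxin reductase) are standard targets of NRF2, the transcription factor that answers oxidants through antioxidant response elements. Hmox1, both ferritin chains and Slc40a1 are also known NRF2 targets.

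The transcripts of iron genes carry a hairpin, the iron responsive element, which iron regulatory proteins bind when iron is low. In the 5′ UTR it blocks translation, and in the 3′ UTR of Tfrc it protects the transcript. The hairpins are shown because they mark which members are also controlled after transcription. A UMI count does not reach the block of translation. Protection of the Tfrc transcript acts on the amount of RNA, which is counted. Each run was read from the GENCODE M21 transcripts of GRCm38, 5′ to 3′ on the transcript's strand, with the bulged C and the loop in capitals.
Fth1, 5′ UTR, chr19:9982729-9982758, plus strand: ggtttcctgCttcaaCAGTGCttgaacgga
Ftl1, 5′ UTR, chr7:45459781-45459810, minus strand: tgtgtcttgCttcaaCAGTGTttgaacgga
Slc40a1, 5′ UTR, chr1:45925467-45925496, minus strand: ttccaacttCagctaCAGTGTtagctaagt
Tfrc, 3′ UTR, first of its matches, chr16:32631216-32631245, plus strand: gataattatCggaagCAGTGCcttccataa
Tfrc, 3′ UTR, last of its matches, chr16:32631707-32631736, plus strand: cgtaattatCgggaaCAGTGTttcccataa

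The search asked for a C, then 5 bases, then CAGTGN, with the 5 bases able to pair with those after the loop (G with T allowed). Among 20916 genes with a 5′ UTR, 31 (0.148%) held such a match, among them Fth1, Ftl1 and Slc40a1. Among 21039 genes with a 3′ UTR, 129 (0.613%) held it, Tfrc among them. Without the pairing the letters alone stood in 12.2% of genes' 5′ UTRs and 35.9% of 3′ UTRs, and Txnrd1, Gclm, Slc48a1 and the Fth1 3′ UTR held only such unpaired matches.

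For the NRF2 targets the promoters were searched on both strands, 250 bases before to 50 after the start in RefSeq (GRCm38.p6), for the core of the antioxidant response element, TGACNNNGC, and for the overlapping motif TGANTCA that AP-1 proteins bind. The table held 11 windows for 7 of the 10 genes. TGACNNNGC stood in 12.4% of 32851 windows and in those of Gclm, Srxn1 and Txnrd1. TGANTCA stood in 7.81% of windows and, of these genes, in Srxn1 alone. The matches that lie before the start are shown on the plus strand with the motif in capitals (for Gclm and Txnrd1 it reads on the minus strand).
Gclm, chr3:122245413-122245442: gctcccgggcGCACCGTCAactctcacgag
Txnrd1, chr10:82859104-82859133: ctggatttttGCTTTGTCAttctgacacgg
Srxn1, chr2:152105411-152105440: ctcggagggccTGAGTCAccacgctgtgcg
Srxn1, chr2:152105468-152105497: caaattcacccTGAGTCAgcggccgggcgc
A match is a stretch of letters and not a measured binding site.

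The libraries held 2549 to 4305 cells after filtering, 21537 in all, with medians of 6568 to 13620 UMIs (molecules counted once) per cell. Libraries shared 7 to 32 cell barcodes per pair. The cells fell into 23 clusters, of which 19 were named from markers as 9 classes and 4 (1526 cells) stayed unnamed. Levels are in CPM, the UMIs of the gene per 1000000 UMIs of the class in the library. The assay counts 3′ ends, so levels are compared between classes and libraries and not between genes. Epithelial-like, fibroblast-like, macrophage-like and endothelial-like cells were numerous enough for a fit over all genes. Fold changes come from edgeR on UMI sums per library with TMM scaling, which lowered the Tumor against DCIS log2 folds of all genes by 0.40 in epithelial-like, 0.72 in fibroblast-like, 0.60 in macrophage-like and 0.36 in endothelial-like cells compared with unscaled sums. For DCIS against Prepuberty it raised them by 0.11, 0.23, 0.15 and 0.32.

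**Figure D1:**
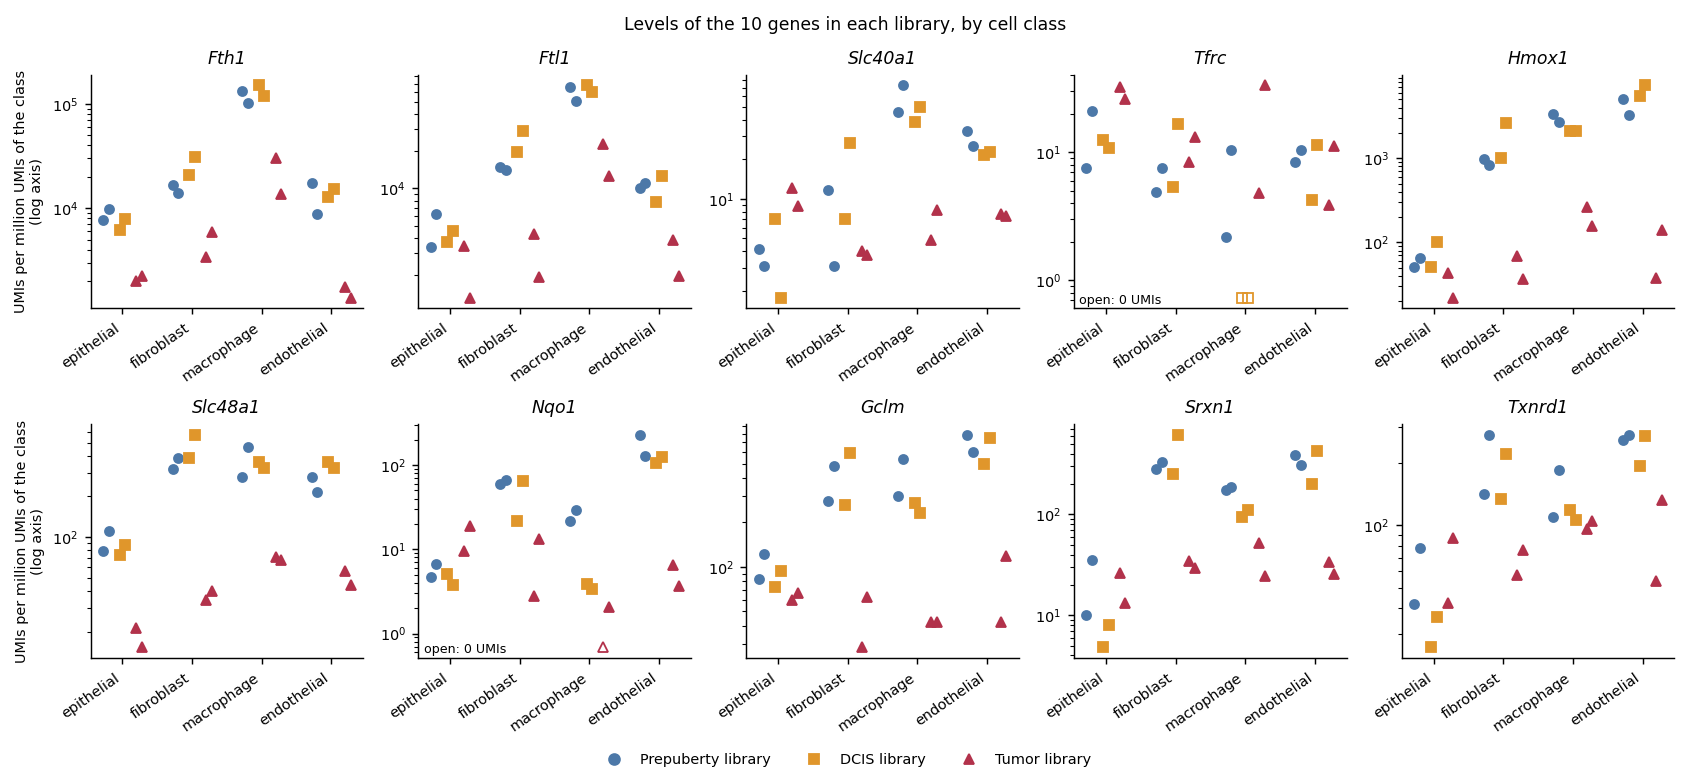
Level of each of the 10 genes (log axis, CPM of the class) in every library, for the 4 classes fitted; circles are Prepuberty, squares DCIS and triangles Tumor libraries, and open symbols stand for 0 UMIs. Fth1 and Slc48a1 triangles lie below all gland symbols in each class, while epithelial-like Tfrc, Slc40a1 and Nqo1 triangles lie above them.

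The ferritin heavy chain was highest in macrophage-like cells. Fth1 reached 131900 and 102000 CPM in Prepuberty 1 and 2, 151600 and 118100 in DCIS 1 and 2, and 30230 and 13790 in Tumor 1 and 2. The 4 gland libraries lay above the gland libraries of every other class, and the Tumor libraries of this class above those of every other class in Tumor. Next came myoepithelial-like cells, with 11700 and 28140 in Prepuberty, 44850 and 51430 in DCIS, and 2905 and 3244 in Tumor. Their gland levels overlapped those of Schwann-like and fibroblast-like cells. Of the myoepithelial-like cells of Tumor 1 and 2, 49 of 89 and 64 of 117 had a T-antigen UMI, against at most 0.532% in a gland library. When the libraries were clustered without integration, this class held 0 cells of either Tumor library. Whether its Tumor and gland cells are of 1 kind was not tested.

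In fibroblast-like cells Fth1 stood at 16680 and 14040 in Prepuberty, 20970 and 30760 in DCIS, and 3380 and 5944 in Tumor. Endothelial-like cells gave 17640 and 8822, then 12730 and 15220, then 1766 and 1382. Epithelial-like cells, near the low end of the gland classes, gave 7699 and 9852, then 6210 and 7805, then 2007 and 2238. In each of these classes the Tumor libraries lay below all 4 gland libraries with no overlap. The Fth1 log2 fold of Tumor against DCIS was -2.12 (SE 0.33, 4.33-fold lower) in epithelial-like, -3.21 (SE 0.43, 9.29-fold lower) in fibroblast-like, -3.12 (SE 0.67, 8.68-fold lower) in macrophage-like and -3.51 (SE 0.51, 11.4-fold lower) in endothelial-like cells. The macrophage-like fold was -4.11 without Tumor replicate 1 and -2.54 without Tumor replicate 2. In T or NK-like cells Fth1 was 3060 in Prepuberty 2, 5901 and 6915 in DCIS, and 3880 and 1790 in Tumor, so that Tumor overlapped the glands.

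The light chain followed with less separation in epithelial-like cells. Ftl1 was 65810 and 50820 in macrophage-like cells of Prepuberty, 67930 and 60350 in DCIS, and 22950 and 12600 in Tumor. In fibroblast-like cells it was 15010 and 14110, 19640 and 28780, and 4337 and 1925. In endothelial-like cells it was 10070 and 11160, 7825 and 12710, and 3834 and 1971. All 3 classes had Tumor libraries below the glands. In epithelial-like cells the values were 3399 and 6262, 3717 and 4515, and 3467 and 1318, so that Tumor 1 lay inside the range of the glands and only Tumor 2 below it. The Ftl1 log2 fold of Tumor against DCIS was -3.56 (SE 0.61), -2.37 (SE 0.59) and -2.14 (SE 0.47) in fibroblast-like, macrophage-like and endothelial-like cells, and -4.60, -3.17 and -3.0 without Tumor replicate 1. In epithelial-like cells it was -1.09 (SE 0.57), and it was -2.21 without Tumor replicate 1 and -0.49 without Tumor replicate 2. Reads of Ftl1 may be shared with the pseudogene Ftl1-ps1, which held 7581 UMIs against 372403 for Ftl1 in epithelial-like cells.

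Both chains together made up a large part of the macrophage transcriptome. Their share of all UMIs of macrophage-like cells was 19.8% and 15.3% in Prepuberty, 22% and 17.8% in DCIS, and 5.32% and 2.64% in Tumor. In fibroblast-like cells the share was 3.17% and 2.82%, 4.06% and 5.95%, and 0.772% and 0.787%. In endothelial-like cells it was 2.77% and 2.0%, 2.06% and 2.79%, and 0.56% and 0.335%. The epithelial-like share was the smallest of the 4 classes in the glands, at 1.11% and 1.61%, 0.993% and 1.23%, and 0.547% and 0.356% in Tumor.

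**Figure D2:**
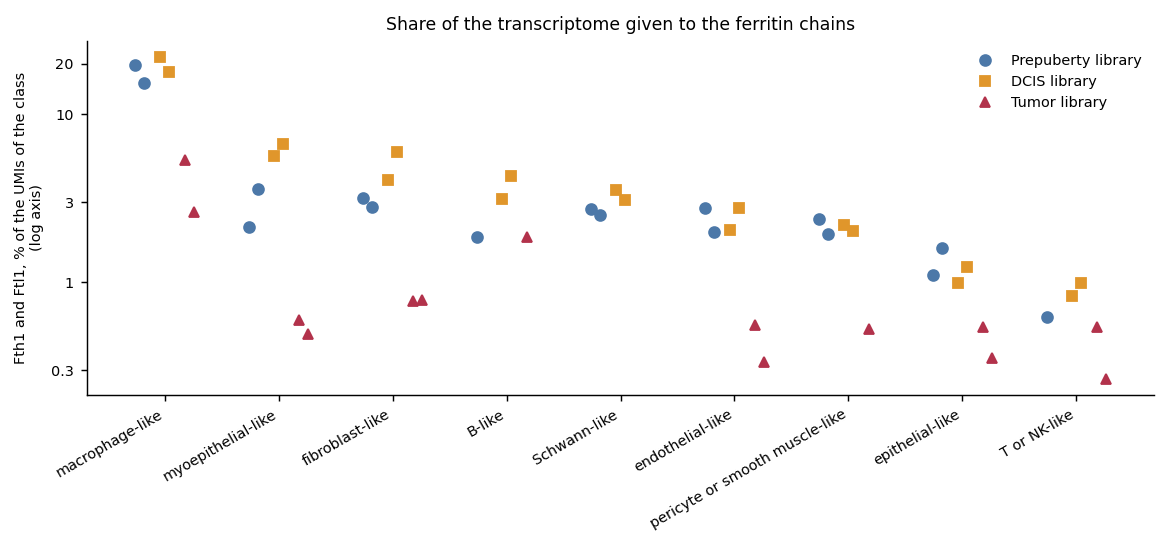
Share of all UMIs of a class (percent, log axis) that came from Fth1 and Ftl1, by class and library; only libraries with at least 10 cells of the class are drawn. Macrophage-like cells stand highest in every state, at 15.3% to 22% in the glands and 2.64% and 5.32% in Tumor.

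Beside these values stand markers of other cells, as summed CPM of 12 lists per class. In epithelial-like cells both Tumor libraries lay above all glands for 3 lists and below them for 1. The 8 myoepithelial markers stood at 1460 to 2533 in Tumor against 236.7 to 1066 in the glands, the dendritic markers at 58.6 to 76.4 against 6.61 to 56.3, and the adipocyte markers at 1.11 to 3.07 against 15.1 to 55.9. The epithelial markers themselves were lower in Tumor, at 5400 to 8184 against 8714 to 13910.

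In fibroblast-like cells Tumor lay above the glands for 5 lists and below for 2. It held 340.6 to 1147 of the myoepithelial markers against 13.8 to 29.2, 160.3 to 557.2 of the epithelial against 14.5 to 89.1, 85.7 to 999.4 of the pericyte or smooth muscle against 20.6 to 35.5, and 39.3 to 152.1 of the T or NK markers against 0.505 to 7.07. The myoepithelial and the pericyte or smooth muscle lists share Acta2 and Myh11, so their sums are not independent. Adipocyte markers were lower, at 11.8 to 16.1 against 188 to 391.8, and so were endothelial markers, at 65.8 to 86.9 against 88.95 to 181.3.

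Macrophage-like cells of Tumor lay above the glands for 4 lists and below for 2. Neutrophil markers stood at 1055 to 5247 (6 of 6 seen) against 45.5 to 317.2 (3 to 5 of 6 seen), dendritic markers at 2458 to 4887 against 1509 to 1922, myoepithelial at 45.8 to 63.9 against 10.4 to 30.5 and Schwann at 14.97 to 31.4 against 6.49 to 12.5. Adipocyte markers were at 4.84 to 6.83 (1 of 5 seen) against 331.9 to 595.5 (1 to 2 of 5 seen), so this sum rests on 1 or 2 genes. Endothelial markers were at 9.57 to 18.9 against 23.9 to 50.6. Endothelial-like cells of Tumor held 2570 to 2675 of the adipocyte markers, with only 1 of 5 seen, against 6342 to 8937, and more fibroblast (289 to 311.6 against 50 to 273) and dendritic markers (374.2 to 495.7 against 242.4 to 373.6). The adipocyte list holds Fabp4, a leading gene of endothelial-like cluster 6, so its sum is no measure of adipocytes in that class. The dendritic list holds H2-Ab1, a leading gene of a macrophage-like cluster drawn without integration of the libraries.

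Erythroid markers, of red cells that carry heme, were higher in both Tumor libraries than in all glands in epithelial-like cells (33.9 to 179.4 against 0 to 6.84) and in fibroblast-like cells (1.86 to 7.31 against 0.186 to 1.65). In endothelial-like cells the 6 erythroid markers summed to 157.6 and 683.1 in Prepuberty, 34.2 and 441.1 in DCIS, and 1.29 in Tumor 1 against 3383 in Tumor 2, and in macrophage-like cells Tumor (0.881 and 13.7) overlapped the glands (1.95 to 43.8). The part of these markers in the results was not tested.

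Slc48a1, the heme exporter of the phagolysosome, was not restricted to macrophages. In the glands its highest median was in pericyte or smooth muscle-like cells (412, from 390 to 453 over 4 libraries), which overlapped fibroblast-like (384) and macrophage-like cells (340). In fibroblast-like cells it was 318.3 and 382.3 in Prepuberty, 384.9 and 569.4 in DCIS, and 34.3 and 39.7 in Tumor. In macrophage-like cells it was 280.3 and 465.4, 357.5 and 321.6, and 71.3 and 67.7. In endothelial-like cells it was 280.5 and 214.4, 357.3 and 326.8, and 56.6 and 44.5. Epithelial-like cells held less, at 79.0 and 111 in Prepuberty, 73.3 and 87.2 in DCIS, and 21.4 and 15.3 in Tumor. The Tumor libraries lay below the glands in all 4 classes. In myoepithelial-like cells it was 130.8 to 271.9 in the glands and 10.99 and 4.74 in Tumor. Of those Tumor cells 49 of 89 and 64 of 117 had a T-antigen UMI, and without integration the class held 0 Tumor cells. The log2 fold of Tumor against DCIS was -2.48 (SE 0.37, 5.58-fold lower) in epithelial-like, -4.39 (SE 0.39, 20.9-fold lower) in fibroblast-like, -2.85 (SE 0.38, 7.21-fold lower) in macrophage-like and -3.08 (SE 0.36, 8.45-fold lower) in endothelial-like cells.

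Of the 10 genes, Hmox1 had the lowest log2 folds of Tumor against DCIS in endothelial-like, fibroblast-like and macrophage-like cells. Its level in endothelial-like cells was 5121 and 3294 in Prepuberty, 5472 and 7377 in DCIS, and 37.3 and 140.8 in Tumor, a log2 fold against DCIS of -6.70 (SE 0.66, 104-fold lower, and -7.67 without Tumor replicate 2). In fibroblast-like cells it was 978.8 and 832.3, 998.4 and 2611, and 69.6 and 36.6, a log2 fold of -5.71 (SE 0.71, 52.3-fold lower), which was -6.57 without Tumor replicate 1 and -4.90 without DCIS replicate 2. Macrophage-like cells gave 3344 and 2684, 2082 and 2100, and 261.1 and 156.5, with a log2 fold of -3.84 (SE 0.51, 14.3-fold lower, and -4.56 without Tumor replicate 1). In the glands the order ran from endothelial-like cells (median 5300) to macrophage-like cells (2390), whose libraries overlapped. Macrophage-like cells (2080 to 3340) lay above pericyte or smooth muscle-like cells (up to 1910), next by median, and overlapped fibroblast-like (up to 2610), myoepithelial-like (up to 2310) and Schwann-like cells (up to 2230). In Tumor the highest class was macrophage-like (209). Epithelial-like cells held little in any state, 50.9 and 65.7, 50.5 and 101, and 42.97 and 22.04, with a log2 fold of -1.55 (SE 0.51). Without DCIS replicate 2 that fold was -0.95 and without Tumor replicate 1 it was -2.36.

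For the iron exporter and importer, epithelial-like cells of Tumor lay above the glands. Slc40a1 was highest in macrophage-like cells of the glands, 46.0 and 73.0 in Prepuberty and 38.3 and 50.0 in DCIS, and stood at 4.84 and 8.20 in Tumor (log2 fold against DCIS -3.34, SE 0.41, 10.2-fold lower, and -4.59 with clusters drawn without integration of the libraries). Endothelial-like cells held 32.7 and 24.98, 21.5 and 22.9, and 7.72 and 7.41 (log2 fold -1.86, SE 0.46). Their Tumor values rest on 8 UMIs in all. In epithelial-like cells the order turned, with 4.18 and 3.11 in Prepuberty, 7.04 and 1.77 in DCIS, and 12.2 and 8.77 in Tumor. The Tumor libraries lay above all gland libraries there, at a log2 fold against DCIS of 0.91 (SE 0.65), which was 0.23 without DCIS replicate 2 and 2.12 without DCIS replicate 1. Fibroblast-like cells held 11.7 and 3.07, 7.07 and 26.5, and 4.02 and 3.76, with Tumor below DCIS and inside the range of Prepuberty (log2 fold -2.82, SE 0.86, from -3.49 without DCIS replicate 1 to -1.60 without DCIS replicate 2).

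Tfrc was a low count everywhere. Epithelial-like cells held 7.53 and 20.9 in Prepuberty, 12.5 and 10.9 in DCIS, and 32.2 and 25.9 in Tumor, with both Tumor libraries above the glands (log2 fold against DCIS 0.96, SE 0.46). Fibroblast-like cells held 4.87 to 16.7 in the glands and 8.35 and 13.2 in Tumor, and endothelial-like cells 4.23 to 11.4 and 3.86 and 11.1, so that both overlapped. The log2 folds of -0.78 (SE 0.56) and -0.70 (SE 0.72) in these classes changed sign without DCIS replicate 2, to 0.22 and 0.05. In fibroblast-like cells the fold was -1.38 without DCIS replicate 1, and in endothelial-like cells -0.10 without Tumor replicate 1, where Tumor held 6 UMIs in all. In macrophage-like cells the gene was at 0 in both DCIS libraries, where 3 UMIs over both libraries would be a level of 1.24, and at 4.84 and 33.5 in Tumor, at least 13-fold higher against that floor. Of the 60 UMIs in Tumor 49 came from Tumor 2, and the bound is 3.91-fold without that library and 27-fold without Tumor 1. Fth1 was lower and Tfrc higher in epithelial-like cells of both Tumor libraries than in any gland library.

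Of the NRF2 targets, Gclm was lower in Tumor in all 4 classes. It stood at 280.8 and 486, 261.4 and 594.8, and 28.5 and 62.7 in fibroblast-like cells, and at 784.3 and 602.5, 494.4 and 750.3, and 42.5 and 118.6 in endothelial-like cells. Macrophage-like cells gave 300 and 538.5, 271.8 and 233, and 42.3 and 42.4. Epithelial-like cells gave 83.1 and 122.1, 72.5 and 93.6, and 60.0 and 66.1, which do not overlap but lie close. Log2 folds of Tumor against DCIS were -3.99 (SE 0.55), -3.45 (SE 0.46), -3.14 (SE 0.39) and -0.79 (SE 0.30) in that order. The fibroblast-like fold was -3.33 without DCIS replicate 2, and the endothelial-like fold -4.11 without Tumor replicate 2.

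Srxn1 and Nqo1 were higher in Tumor than in DCIS in epithelial-like cells and lower in the other 3 classes, a difference between classes that was not tested. Srxn1 was 280.9 and 327.1, 251 and 614.2, and 34.6 and 29.7 in fibroblast-like cells (log2 fold -4.42, SE 0.54, 21.4-fold lower, and -3.68 without DCIS replicate 2), and 392.1 and 311.8, 202.3 and 424.6, and 33.5 and 25.9 in endothelial-like cells (-3.67, SE 0.44, and -5.15 with clusters without integration). Macrophage-like cells gave 175.2 and 187.8, 93.4 and 110.2, and 52.4 and 24.6 (-1.89, SE 0.46, and -2.85 without Tumor replicate 1). In epithelial-like cells it was 9.96 and 35.1, 4.80 and 8.05, and 26.3 and 13.2, so that Tumor lay above DCIS but inside the range of Prepuberty (1.30, SE 0.65, and 0.47 without Tumor replicate 1).

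Nqo1 was an endothelial-like gene in the glands, at 227.6 and 127.7 in Prepuberty and 105 and 123.2 in DCIS, above the libraries of every other class. In Tumor these cells held 6.44 and 3.71 (log2 fold -4.65, SE 0.55, 25.1-fold lower), on 6 UMIs in all. That fold was -5.56 without Tumor replicate 1 and -3.72 with clusters without integration. Fibroblast-like cells held 60.1 and 66.5, 21.6 and 65.2, and 2.79 and 13.4 (-3.19, SE 0.69, from -4.50 without Tumor replicate 2 to -2.25 without DCIS replicate 2, and -3.81 without DCIS replicate 1). In epithelial-like cells Nqo1 was 4.64 and 6.66, 5.11 and 3.73, and 9.41 and 18.8, with both Tumor libraries above the glands (1.24, SE 0.41). Macrophage-like cells of Tumor held 3 UMIs in all against 9 in DCIS, a ratio of 0.216 with an exact 95% counting interval from 0.0376 to 0.866, and all 3 UMIs came from Tumor 2.

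Txnrd1 had the smallest folds of the 4 NRF2 targets in each class. It was 142.2 and 273.2, 134.1 and 221.2, and 57.9 and 76.5 in fibroblast-like cells (log2 fold -2.12, SE 0.42), and 259.1 and 274, 194.2 and 269.3, and 54.1 and 133.4 in endothelial-like cells (-1.79, SE 0.36). In macrophage-like cells it was 109.5 and 185.8, 119.4 and 105.7, and 96.0 and 105.2, with the higher Tumor library just under the lower DCIS library (-0.74, SE 0.34, and -0.15 without TMM scaling). In epithelial-like cells it was 41.8 and 77.7, 25.7 and 36.3, and 42 and 87.3, above DCIS and overlapping Prepuberty (0.61, SE 0.39, and 0.19 without Tumor replicate 2).

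**Figure D3:**
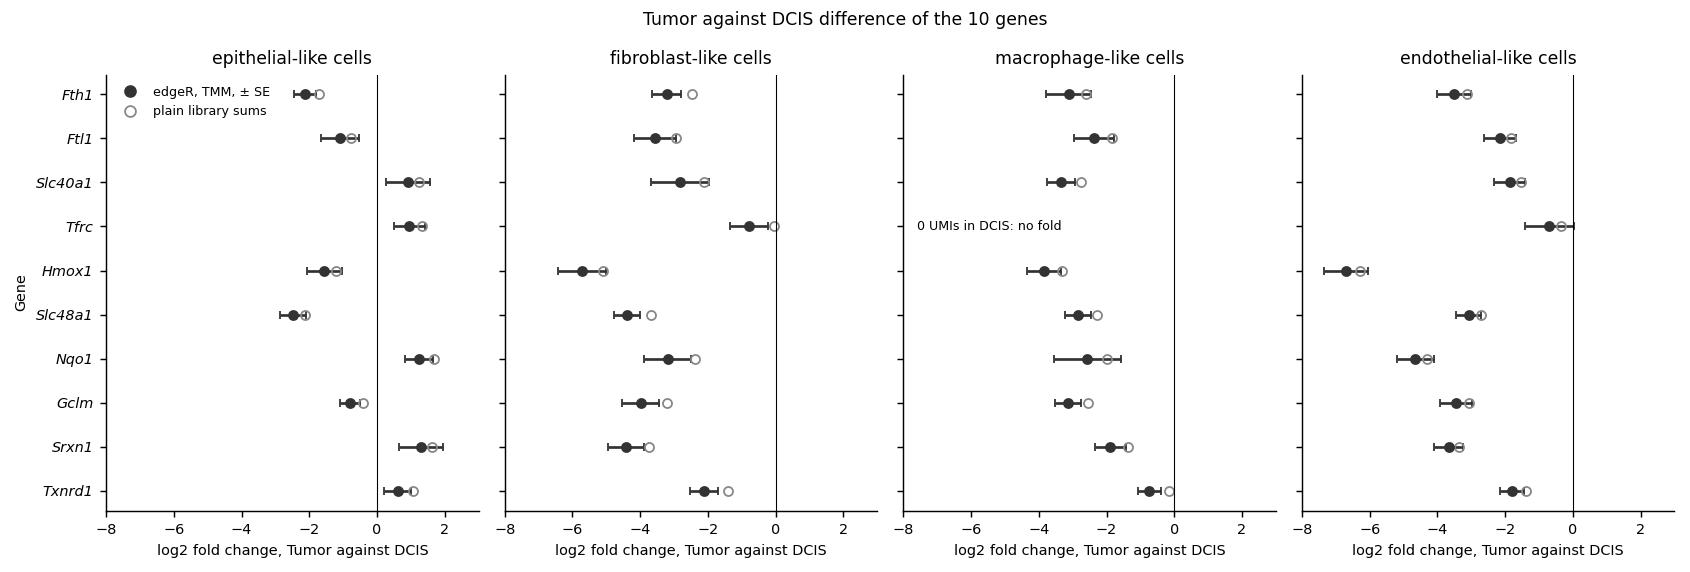
Log2 fold change of Tumor against DCIS for the 10 genes in the 4 classes; filled points are edgeR estimates with TMM scaling and bars are ± 1 SE over 2 against 2 libraries, open points are ratios of plain library sums. In fibroblast-like and endothelial-like cells every filled point lies below 0, and in epithelial-like cells 5 of 10 lie above it.

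Counted over the 10 genes, both Tumor libraries lay below both DCIS libraries for 5 genes in epithelial-like, 9 in fibroblast-like, 9 in macrophage-like and 9 in endothelial-like cells. Of all genes tested in those classes 14.8%, 12.5%, 12.4% and 18.8% did so. Tumor lay above DCIS for 5 genes in epithelial-like cells (44.8% of all genes), for Tfrc in macrophage-like cells (53.2%), and for none in fibroblast-like (58.8%) and endothelial-like cells (40.7%). Against all 4 gland libraries at once, Tumor was lower for 4, 8, 9 and 9 of the genes (9.66%, 7.95%, 7.51% and 16.0% of all genes) and higher for 3 in epithelial-like cells (29.5%) and for none in the others (38.8%, 33.3% and 25.4%). The median log2 fold of the 10 genes was -0.09, -3.38, -2.71 and -3.27, against 0.09, 0.13, 0.06 and -0.02 over all genes tested. These genes were chosen for such values, so the counts describe them and support nothing further.

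The comparison that did not enter the choice, DCIS with Prepuberty, asked whether these genes had moved in glands with in situ lesions. None of the 10 passed edgeR's quasi-likelihood test with Benjamini-Hochberg adjustment over all genes in any class. Of all genes 0.0% of 13328 passed in epithelial-like, 0.0% of 12142 in fibroblast-like, 0.132% of 7601 in macrophage-like and 0.0% of 10621 in endothelial-like cells. DESeq2 called 0 of the 10 in each class, with no adjusted p for Tfrc and Nqo1 in macrophage-like cells. At an unadjusted p under 0.05 there were 1, 1, 2 and 1 of the 10, and 1635, 1215, 831 and 1205 of all genes. With the filter on low counts left out, Srxn1 in epithelial-like cells (adjusted p = 0.0164), and Tfrc (0.0347) and Nqo1 (0.0429) in macrophage-like cells passed edgeR's test. The share of all genes that passed without the filter is not given, so these calls cannot be set against it.

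The genes under that unadjusted limit are named with their values. Fth1 in fibroblast-like cells had a log2 fold of DCIS against Prepuberty of 0.98 (SE 0.40, edgeR unadjusted p = 0.0422, adjusted p = 0.489). For Slc48a1 in endothelial-like cells it was 0.77 (SE 0.31, edgeR unadjusted p = 0.0373, adjusted p = 0.414). For Nqo1 in macrophage-like cells it was -2.60 (SE 0.75, edgeR unadjusted p = 0.00565, adjusted p = 0.261), with 21.9 and 29.2 CPM in Prepuberty and 3.89 and 3.41 in DCIS. In epithelial-like cells Srxn1 had a fold of -1.59 (SE 0.68, edgeR unadjusted p = 0.0479, adjusted p = 0.405). Tfrc in macrophage-like cells was at 2.19 and 10.4 in Prepuberty and had 0 UMIs in DCIS, at least 5.18-fold lower against the floor of 3 UMIs (edgeR unadjusted p = 0.027, adjusted p = 0.409), and it too did not pass. Of its 6 UMIs in Prepuberty 5 came from Prepuberty 2, and the 1 left without that library allows no fold. Without Prepuberty 1 the bound is 8.42-fold.

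Fibroblast-like cells had 9 of the 10 folds above 0 in this comparison, and both DCIS libraries lay above both Prepuberty libraries for 4 of them (Fth1, Ftl1, Hmox1 and Slc48a1), as did 14.6% of all genes. Macrophage-like cells had 7 of 10 below 0, and for 5 (Hmox1, Tfrc, Nqo1, Gclm and Srxn1) DCIS lay below Prepuberty, as did 25.8% of all genes. In epithelial-like cells 2 genes lay lower (31.7% of all genes), and in endothelial-like cells 2 lower (45.8%) and 2 higher (9.88%). Without TMM scaling the sign changed for Txnrd1 in fibroblast-like, Slc48a1 in macrophage-like, and Ftl1, Tfrc, Gclm, Srxn1 and Txnrd1 in endothelial-like cells, none of which passed.

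By cluster, only libraries with at least 10 cells of the cluster were compared. Of 13 named clusters with cells enough in both Tumor libraries, Slc48a1 in Tumor lay below every such gland library in 13 and Fth1 in 12. The exception for Fth1 was the T or NK-like cluster. Hmox1 did so in 12, Ftl1 and Gclm in 10, Txnrd1 in 7, Srxn1 in 6, Nqo1 in 5, Slc40a1 in 3 and Tfrc in 0. Tumor lay above every gland library in 4 clusters for Tfrc and for Slc40a1, in 2 for Nqo1 and in 1 for Srxn1. The share of all genes that did so is not given by cluster. Over the 4 classes fitted, 7.51% to 16.0% of all genes lay below all 4 gland libraries and 25.4% to 38.8% above. The clusters were drawn from the same cells, so the counts by cluster are no further evidence.

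The clusters also show where in a class the genes sat. Endothelial-like cluster 6, led by the capillary gene Gpihbp1 and by Cldn5, had more Hmox1 (7281 and 3897 in Prepuberty, 8575 and 9845 in DCIS) than cluster 11, led by the venular genes Ackr1 and Selp (2057 and 1327, 3475 and 4470). Endothelial-like cells of Tumor were nearly all in cluster 6, where Hmox1 stood at 33.2 and 145.1. Epithelial-like cluster 9, led by milk protein genes Csn1s1, Ltf and Csn3, held Fth1 at 17540 and 15760 in Prepuberty and 18690 and 23840 in DCIS, and at 2154 and 2669 in Tumor. Fibroblast-like cluster 3, led by Pi16 and Dpt among others, had the most Slc48a1 of the fibroblast-like clusters in each gland library (500.8 and 569.3, 538.3 and 820.9). Clusters 1 and 5 held 28.5% and 32.1% of the epithelial-like cells of Tumor 1, and 34.1% and 24% of those of Tumor 2. Cluster 12 held 41.8% and 41.6% of those of Prepuberty 1 and 2, and 0.555% and 3.60% of those of Tumor 1 and 2.

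**Figure D4:**
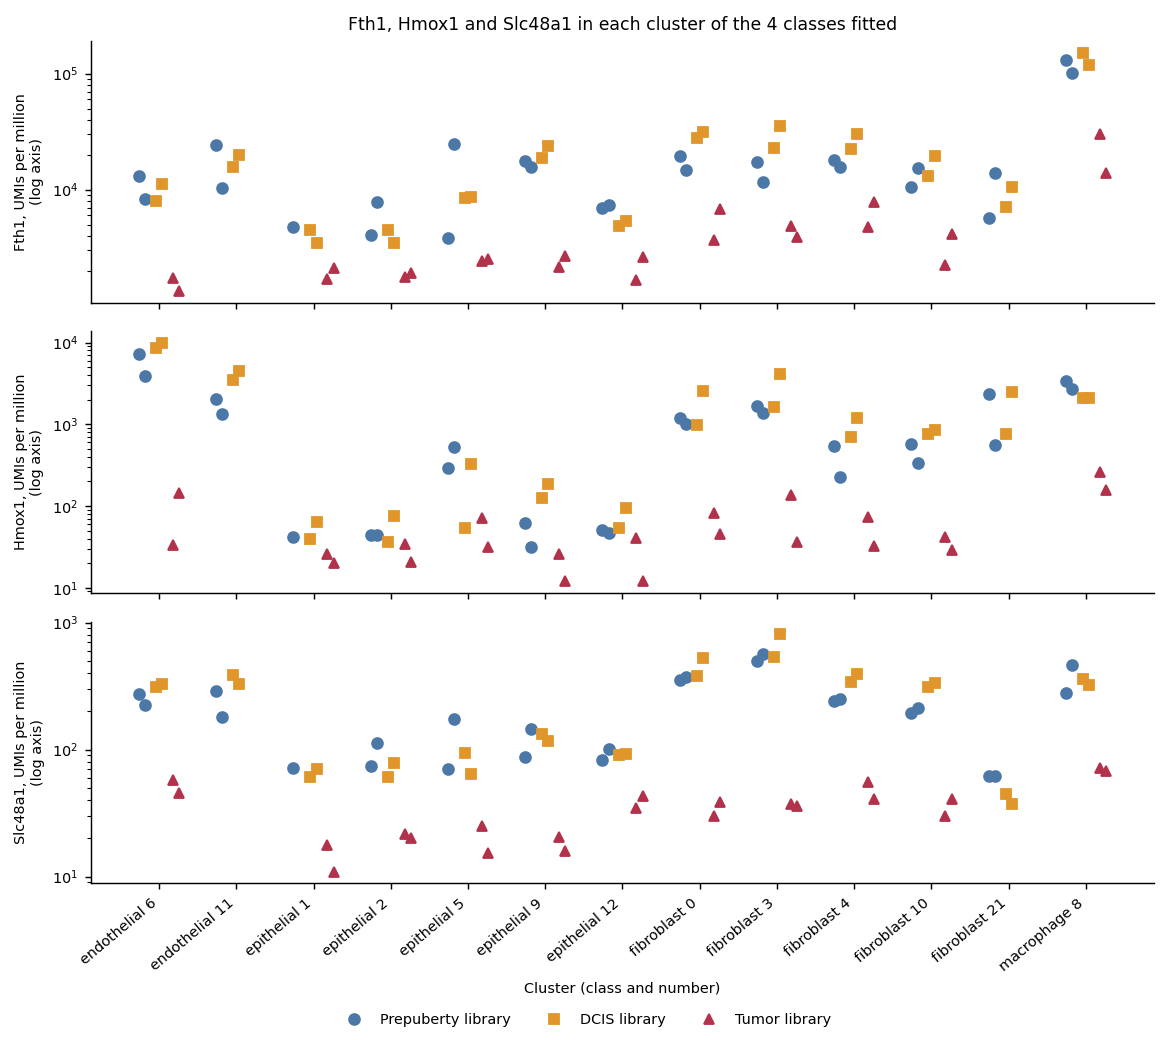
Levels of Fth1, Hmox1 and Slc48a1 (CPM of the cluster, log axes) in each cluster of the 4 classes, by library; symbols as in the legend, and libraries with under 10 cells of a cluster are not drawn. For Fth1 and Slc48a1 the Tumor triangles lie below every gland symbol of the same cluster, and Hmox1 spans from under 100 in epithelial-like cluster 1 to 9845 in endothelial-like cluster 6.

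Levels were also compared between cells with and without a UMI of the T antigen. Epithelial-like cells of Tumor 1 with a T-antigen UMI (1959 cells, median 15628 UMIs) held 1982 CPM of Fth1 and those without (745 cells, median 8462) held 2128. In Tumor 2 the values were 2215 and 2291, and for Slc48a1 they were 21.3 and 21.7 in Tumor 1 and 14.2 and 17.8 in Tumor 2. Over 5 libraries the log2 ratio of cells with to cells without such a UMI ran from -0.41 to 0.03 for Fth1, from -0.32 to 0.06 for Slc48a1 and from -0.93 to 0.07 for Hmox1. It ran from -1.22 to 0.24 for Srxn1, from -0.36 to 0.80 for Nqo1 and from -0.17 to 0.47 for Slc40a1, beside log2 folds of Tumor against DCIS of 1.30, 1.24 and 0.91, and lay between -0.24 and 0.12 for Ftl1, Tfrc, Gclm and Txnrd1. Of the fibroblast-like cells of Tumor, 81 of 263 and 125 of 277 also had a T-antigen UMI (medians 13388 and 18618 UMIs), against 6 of 176 (3.41%, median 1867) and 1 of 104 (0.962%, median 2534.5) of the T or NK-like cells of Tumor 1 and 2. Those fibroblast-like cells with and without one held Fth1 at 3247 and 3464 in Tumor 1, and at 5668 and 6302 in Tumor 2. Over both Tumor libraries their log2 ratios ran from -2.90 to 0.63 for Slc40a1, from -0.14 to 1.23 for Tfrc, from 0.56 to 0.70 for Gclm and from 0.36 to 0.56 for Nqo1, and lay between -0.37 and 0.45 for the other 6 genes. Some of these ratios rest on few UMIs. Fibroblast-like cells of Tumor 1 with and without a T-antigen UMI held 1 and 12 of Slc40a1, 16 and 11 of Tfrc, and 4 and 5 of Nqo1.

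The 69 other genes of the lists for iron handling, heme and the NRF2 pathway hold no member, and their Tumor against DCIS difference was tested. These lists too were chosen with earlier results of these data known. Their counts beside those of all genes are therefore no independent evidence. In fibroblast-like cells 19 of 64 tested passed (29.7%, where 13.5% of all genes did), 4 higher (7.95% of all genes) and 15 lower (5.59%). Of the 24 NRF2 pathway genes 10 were lower and 0 higher, with a median log2 fold of -1.55 against 0.13 over all genes. Slc7a11, the cystine transporter, stood at 99.7 and 106.5, 47.3 and 233.5, and 0.619 and 2.30 CPM (log2 fold -7.25, SE 0.92, edgeR adjusted p = 0.00877). Cbr3, a carbonyl reductase (-3.02, SE 0.41), Sqstm1, the autophagy receptor p62 (-3.02, SE 0.44), and Gclc, the catalytic partner of Gclm (-2.86, SE 0.47), were lower too. The edgeR adjusted p of the 12 named genes ran from 0.00776 (Blvrb) to 0.0445 (Alad). The heme list was mixed, with Blvrb, a biliverdin reductase, at -3.90 (SE 0.41) and Pgrmc1, a heme-binding membrane protein, at -2.05 (SE 0.35), while Alad, an enzyme of heme synthesis, at 1.5 (SE 0.39) and the transporter Abcg2 at 1.63 (SE 0.39) were higher (3 higher, 2 lower of 18). In the iron list 1 of 22 was higher and 3 lower. Bmp6, which drives hepcidin in the liver, was at -4.12 (SE 0.52), the iron transporter Slc11a2 at -2.35 (SE 0.33) and Slc25a37, which brings iron into mitochondria, at -1.71 (SE 0.34). Tfr2 rose on 1 UMI in DCIS and 45 in Tumor, a ratio of 82.2 with an exact 95% counting interval from 14.0 to 3320. Without DCIS replicate 1 only 6 genes passed, without DCIS replicate 2 only 1 and without Tumor replicate 2 only 11, and of the 12 named genes 5, 1 and 8 did. The Slc7a11 fold ran from -8.33 without Tumor replicate 2 to -5.75 without DCIS replicate 2 (-8.03 without DCIS replicate 1), that of Sqstm1 was -3.63 without Tumor replicate 1, and that of Gclc was -2.15 without DCIS replicate 2, where its call was lost, as it was without Tumor replicate 2. The Tfr2 call was lost without either DCIS replicate, Tumor replicate 1 or Prepuberty replicate 2.

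In endothelial-like cells 17 of 63 passed (27.0%, of all genes 13.7%), 1 higher (7.15% of all genes) and 16 lower (6.58%). The NRF2 list again had 9 of 24 lower and 0 higher. Slc7a11 fell from 863 UMIs in DCIS to 1 in Tumor, a ratio of 0.00624 (exact 95% counting interval 0.000158 to 0.0349, edgeR adjusted p = 0.00206). Sqstm1 (-2.18, SE 0.31), Taldo1, of the pentose phosphate pathway (-2.10, SE 0.33), and Mafg, a small partner of NRF2 (-1.76, SE 0.28), were lower. The iron list had 6 of 22 lower, among them Lcn2, the siderophore binder lipocalin 2 (-4.80, SE 0.76), the ferroxidase Cp (-3.20, SE 0.65) and Slc25a37 (-2.52, SE 0.40). Steap4, a metalloreductase, held 3 UMIs in Tumor against 140 in DCIS (ratio 0.115, exact 95% counting interval 0.0235 to 0.344). Of 17 heme genes, Blvrb was lower (-3.90, SE 0.47) and Alad higher (1.83, SE 0.36). The named genes had edgeR adjusted p-values up to 0.0164. Tumor held 78 and 33 endothelial-like cells. Without integration of the libraries most of them formed a cluster of their own that could not be named, and 3 of the pathway genes passed. Without DCIS replicate 1, Tumor replicate 1 or Tumor replicate 2 there were 10, 11 and 11, and of the 10 named genes 9, 7 and 9. Lcn2 had 0 UMIs in Tumor 2, and its fold was -4.16 without that library. The Cp fold was -4.32 without Tumor replicate 2, -2.19 without Tumor replicate 1 and -0.76 without integration, and the call was lost in the last pair. Blvrb was at -4.78 without Tumor replicate 1 and at -2.53 without integration, where its call was lost.

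In macrophage-like cells 10 of 51 passed, all lower (19.6%, where 6.74% of all genes passed and 4.17% were lower). They were Fbxl5, which targets iron regulatory protein 2 for degradation (-2.02, SE 0.37), the iron transporters Slc11a1 (-2.07, SE 0.46) and Slc11a2 (-1.95, SE 0.42), Blvrb (-2.58, SE 0.48), the heme exporter Flvcr1 (-1.85, SE 0.43), Alas1, the first enzyme of heme synthesis (-1.27, SE 0.33), Prdx1, a peroxiredoxin (-3.33, SE 0.49), Slc7a11 (-2.87, SE 0.63), Mafg (-1.27, SE 0.34, edgeR adjusted p = 0.05, just under the threshold) and the iron hormone hepcidin, Hamp. Prdx1 had the smallest edgeR adjusted p, 0.00693, and stood at 10310 and 10240 in Prepuberty, 9364 and 7878 in DCIS, and 1431 and 1064 in Tumor. Hamp had 0 UMIs in Tumor after 16 in DCIS, which against the floor is at least 8.23-fold lower. Of these 16 UMIs 15 came from DCIS 1, and the 1 left without that library allows no fold. Without DCIS 2 the bound is 12.1-fold. The folds of Blvrb, Slc11a1 and Slc7a11 were -3.48, -2.78 and -4.74 without Tumor replicate 1, and that of Slc7a11 was -2.09 without Tumor replicate 2. Without DCIS replicate 1 or DCIS replicate 2 none of the 10 passed, and without Tumor replicate 1 or 2 there were 7 and 5.

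Epithelial-like cells differed in this respect by count. Of 64 genes 1 passed, Flvcr1 (24.9 and 24.3 CPM in DCIS, 9.29 and 8.24 in Tumor, log2 fold -1.86, SE 0.33, edgeR adjusted p = 0.0489), where 1.28% of all genes passed and 0.878% were lower. DESeq2 called 9 of the 64, beside 1667 of all 13328 genes. In edgeR 16 of the 64 and 3286 of all genes had an unadjusted p under 0.05. The count was 0 without either DCIS or either Prepuberty replicate, 9 without Tumor replicate 1 and 10 without Tumor replicate 2. Whether epithelial-like cells differ from the others was not tested.

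Between DCIS and Prepuberty 1 gene of the lists passed. Trf, the plasma iron carrier transferrin, rose in macrophage-like cells from 30.7 and 25.1 CPM to 320.5 and 528.5 (log2 fold 4.04, SE 0.60, edgeR adjusted p = 0.039), and stood at 413.5 and 182.5 in Tumor. The call was lost without any of these 4 libraries (0 genes passed), which leaves 1 library on a side. Trf is also a leading gene of epithelial-like cluster 9. The epithelial-like class formed 38.9% and 23.7% of DCIS 1 and 2, but 18.6% and 3.92% of Prepuberty 1 and 2. Epithelial markers in macrophage-like cells summed to 76.55 to 138.7 CPM in DCIS and 18.78 to 85.4 in Prepuberty, which overlap. Whether epithelial transcripts had a part in the Trf rise was not tested. In the 3 classes other than macrophage-like, 0 of 64, 64 and 63 genes passed edgeR's test. At an unadjusted p under 0.05 there were 5, 9 and 12, and DESeq2 called 1, 0 and 0. Of all genes 1635 of 13328, 1215 of 12142 and 1205 of 10621 had such an unadjusted p, and DESeq2 called 287, 88 and 67.

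**Figure D5:**
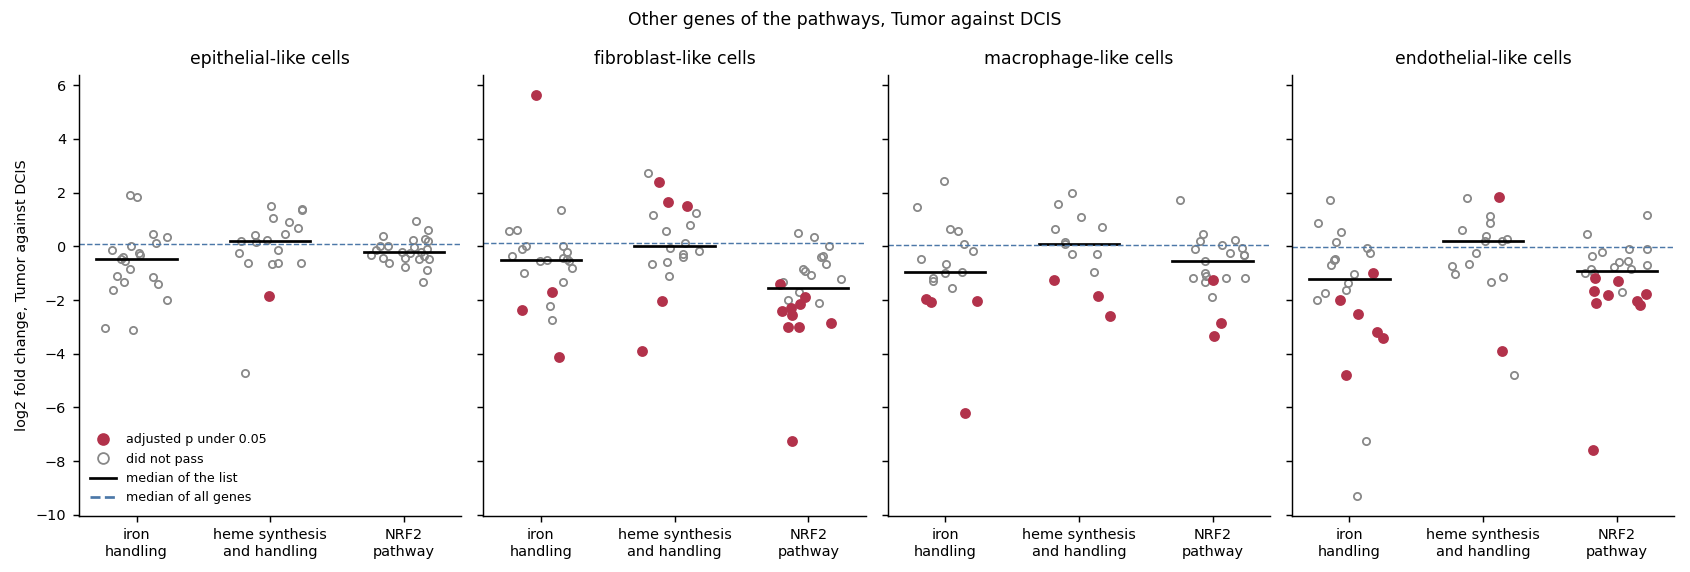
Log2 fold change of Tumor against DCIS for each tested gene of the 3 lists, which hold none of the 10 genes; filled points passed edgeR's test at an adjusted p under 0.05, bars are list medians and the dashed line is the median of all genes. In fibroblast-like and endothelial-like cells 10 and 9 filled points of the NRF2 list lie below 0 and 0 above it.

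The genes with the pattern most like Fth1, over 48 library sums of the 9 classes and 8143 genes, were Ftl1 (Pearson r = 0.851 of log2 levels), Ftl1-ps1 (0.809) and Hmox1 (0.736). For Slc48a1 they were Esd (0.788), Hmox1 (0.77) and Riok3 (0.759), and for Hmox1 they were Sqstm1 (0.892), Esd (0.866) and Gclm (0.847). With each class centred on its mean, Hmox1 kept Sqstm1, Esd and Gclm at 0.864, 0.862 and 0.855, and Slc48a1 was most like Sod2 (0.877), Fgl2 (0.831) and Lims2 (0.829). Centred Fth1 was most like Ftl1 (0.839), Hmox1 (0.838) and Malat1 (0.833), a nuclear RNA. Tfrc ran the other way, at -0.319 with Fth1 and -0.407 with Ftl1. The sums share libraries and depth, so these are descriptions across genes and not tests.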

How the data were processed

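Libraries were made with 10x Genomics 3′ chemistry. The authors mapped and counted the reads with Cell Ranger 3.0.2 (file headers), and mm10 is the build in the submitters' processing notes. The deposited values are raw UMI counts per gene and cell, whole numbers with no normalization. Cells with at least 200 genes and at most 10% mitochondrial UMIs were kept, and doublets were removed by score (Scrublet, 2.19% to 3.71% per library). Libraries were integrated and clustered in Seurat 5.3.0 (2000 variable genes, 20 dimensions, resolution 0.8), and a cluster was named where at least 3 markers of a type were detected. UMIs were summed per library and class (at least 10 cells) and fitted in edgeR 4.0.16 (R 4.3.3; quasi-likelihood F test, TMM, filterByExpr, all 3 states in 1 fit, two-sided, Benjamini-Hochberg over all genes, threshold 0.05). The fit was tested on simulated data. Groups came from the sample labels. Cells of a library are not replicates.

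The 10 genes, the 69 pathway genes and the marker lists were chosen with earlier results of these data known. The 10 genes are all named; of the pathway lists up to 4 genes past the threshold with the smallest p are named per list, class and comparison. Alternatives were DESeq2 1.42.0 and its size factors, no filter on low counts, a replicate block, leaving out each library, a 5% mitochondrial limit, more doublets removed, clustering without integration and leaving out cells with a T-antigen UMI. Sums without TMM factors and cells of the same class in both clusterings were added after the data were seen. Same-numbered libraries of different states deviated from their group means with correlations of -0.07 to 0.35, so the replicate numbers were not taken as pairs. The labels name chemistry v2 for all libraries and the study's methods v3 for Tumor 2, which was not resolved. Intervals and floors of 3 UMIs cover counting error only. Tumor against Prepuberty was fitted and enters through the per-library values.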

Additional observations from a re-analysis of the deposited data

Results flagged for a closer look

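For 4 of the 10 genes the Tumor libraries lay above the DCIS libraries in epithelial-like cells and below them in fibroblast-like, macrophage-like or endothelial-like cells, which makes 12 pairs of classes in which every library moved in opposite directions. None of these differences between classes was tested, and the genes were chosen with their Tumor values known. The difference between the log2 folds of Tumor against DCIS in epithelial-like cells and those in fibroblast-like, macrophage-like and endothelial-like cells was 3.73, 4.25 and 2.77 for the iron exporter Slc40a1. It was 4.43, 3.81 and 5.89 for the quinone reductase Nqo1, the value for macrophage-like cells resting on 3 UMIs in Tumor. For Srxn1 it was 5.72, 3.19 and 4.97, and for Txnrd1 2.73, 1.35 and 2.40. In endothelial-like cells of Tumor, Slc40a1 held 8 UMIs in all and Nqo1 held 6. TMM scaling differed between the classes, from a shift of -0.36 to -0.72, and in macrophage-like cells Txnrd1 was at -0.15 without it. When the libraries were not integrated, Tumor cells of all 4 classes, epithelial-like cells included, formed clusters of their own. The part of this in the differences was not tested.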

How the results depend on the processing

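None of the 34 calls of named pathway genes turned to the opposite direction. Each call is a gene in a class and comparison, so that some genes, such as Blvrb and Slc7a11, count more than once. Leaving out the filter on low counts gave 1 of the 10 genes in epithelial-like and 2 in macrophage-like cells for DCIS against Prepuberty, and 2, 2, 3 and 6 pathway genes (epithelial-like, fibroblast-like, macrophage-like, endothelial-like) in place of 0, 0, 1 and 0. For Tumor against DCIS it gave 10, 30 and 17 pathway genes in the first 3 of these classes in place of 1, 19 and 10. How many of all genes passed without the filter is not given here. With DESeq2, epithelial-like cells had 1 pathway gene for DCIS against Prepuberty and 9 for Tumor against DCIS. DESeq2 called 287 and 1667 of all genes there. With the replicate block the epithelial-like count for Tumor against DCIS was 0, and the endothelial-like count for DCIS against Prepuberty was 2; the block changed none of the other counts by more than 1.5 times. Clustering without integration gave 3 genes in epithelial-like and 3 in endothelial-like cells for Tumor against DCIS, keeping only cells of the same class in both clusterings gave 3 in endothelial-like cells, and leaving out cells with a T-antigen UMI gave 0 in epithelial-like cells. The cause was not tested. With a library left out, Tumor against DCIS ran from 0 to 10 pathway genes in epithelial-like, 1 to 20 in fibroblast-like, 0 to 12 in macrophage-like and 10 to 14 in endothelial-like cells, and DCIS against Prepuberty from 0 to 1 in macrophage-like cells. A fit with 1 library in a state assumes that it varies like the other states. For the 34 calls of named pathway genes, 541 refits kept the call in 435 and lost it in 106. Of 80 Tumor folds of the 10 genes, 1274 refits moved 127 by at least their SE, and 6 folds changed sign in 12 of them. With 2 libraries per state and 33 to 78 endothelial-like cells in Tumor, low counts such as Tfrc are limited by depth.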
